A study of Mus musculus with 16 samples.

Results

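The zinc finger transcription factor genes Zic1, Zic2, Zic4 and Zic5 were followed through 16 RNA-Seq libraries of mouse dorsal hippocampus. They are 4 of the 35328 genes in the table of read counts, found by their Ensembl identifiers through the GENCODE annotation, and each passed the count filter that left 17830 genes for testing. The genes were chosen by the measured fold changes of Zic1 and Zic4, which were lower after training in caffeine-treated mice, so the comparisons of learning with home cage under caffeine and of caffeine with water after training are given below as a description, without a test. Male C57Bl6/J mice drank water or 0.3 g/L caffeine for 2 weeks from 8 to 9 weeks of age. In each drinking group, 4 mice were taken from their home cage and 4 were taken 1 hour after their last trial in the Morris water maze, a spatial task trained over 3 days. The groups are named by condition and drink, from home cage water to learning caffeine. Each library is from 1 mouse. All 12 markers of dorsal hippocampal cells tested, among them Zbtb20, Cabp7 and Neurod6, were present in every library, and their summed level ranged from 1849 to 2323 CPM (counts relative to a library total scaled to 1000000).

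Zic proteins carry C2H2 zinc fingers closely related to those of the Gli proteins, the factors through which hedgehog signals reach the genome. They act early in the neural plate, dorsal midline and neural crest. Zic1 and Zic4 are a neighbouring gene pair known for their part in cerebellar growth, Zic2 is required for forebrain midline formation and for retinal axons that do not cross at the optic chiasm, and Zic5 takes part in neural crest and dorsal brain development. In the adult forebrain these genes are known from the septum, parts of the thalamus and habenula, olfactory bulb interneurons and the meninges rather than from hippocampal principal neurons. Reads from a dissected piece of dorsal hippocampus therefore sum over several possible sources, and in such bulk RNA fewer cells of a type and less RNA per cell cannot be told apart.

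The members form 2 divergent pairs in the mouse genome (build mm10, GENCODE M21). Zic1 (ENSMUSG00000032368) lies on the minus strand of chromosome 9 from 91358058 to 91365810, and Zic4 (ENSMUSG00000036972) on the plus strand from 91362413 to 91389348. Their annotated spans share 3398 bp, but the exons share only 60 bp, which is 1.05% of the exon length of Zic1 and 0.581% of that of Zic4. Zic4 also overlaps Gm37477, a tentative gene model on the opposite strand that collected 31 counts in all 16 libraries together. Whether counting used the strand is not stated, so reads within these shared bases cannot be assigned with certainty. Zic5 (ENSMUSG00000041703) lies on the minus strand of chromosome 14 from 122456795 to 122465677 and Zic2 (ENSMUSG00000061524) on the plus strand from 122475435 to 122479852. Their starts are 9758 bp apart, and neither overlaps another annotated gene.

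**Figure D1:**
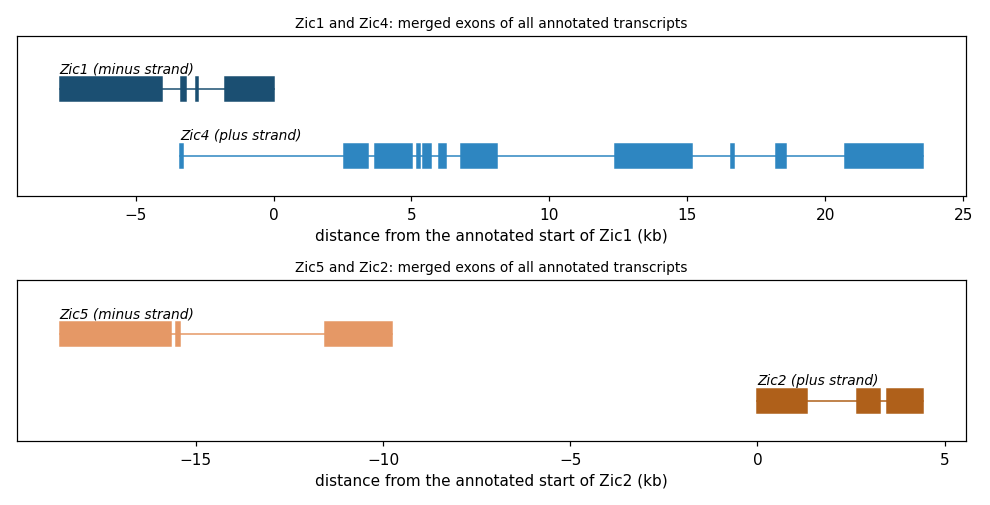
Maps of the 2 Zic gene pairs, with distance in kb from the annotated start of Zic1 (top) or Zic2 (bottom) on the x axis, boxes for merged exons and lines for introns. Zic1 and Zic4 overlap in a span of 3398 bp in which only 60 bp of exon are shared, while Zic5 and Zic2 do not overlap.

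The start regions are printed because Zic1 and Zic4, the members that fell together, are read from opposite strands. The annotated start of Zic4 in GENCODE lies within Zic1, whereas the RefSeq start used for the Zic4 window below is another one, further along Zic4 and beyond the start of Zic1. The RefSeq promoter table (GRCm38.p6) held 3 of the 4 members, each as 300 bases, from 250 before to 50 after the start, written 5′ to 3′ on the strand of the gene. The windows are chr9:91365719-91366018 on the minus strand for Zic1, chr9:91368722-91369021 on the plus strand for Zic4 and chr14:122465609-122465908 on the minus strand for Zic5, and capitals mark a match to a searched motif.
Zic1: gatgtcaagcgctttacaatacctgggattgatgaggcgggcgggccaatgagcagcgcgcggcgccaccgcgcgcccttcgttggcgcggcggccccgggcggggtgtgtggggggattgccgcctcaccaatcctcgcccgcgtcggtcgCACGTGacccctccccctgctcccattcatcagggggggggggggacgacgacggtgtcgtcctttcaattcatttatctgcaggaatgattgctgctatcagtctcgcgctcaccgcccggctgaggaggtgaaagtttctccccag
Zic4: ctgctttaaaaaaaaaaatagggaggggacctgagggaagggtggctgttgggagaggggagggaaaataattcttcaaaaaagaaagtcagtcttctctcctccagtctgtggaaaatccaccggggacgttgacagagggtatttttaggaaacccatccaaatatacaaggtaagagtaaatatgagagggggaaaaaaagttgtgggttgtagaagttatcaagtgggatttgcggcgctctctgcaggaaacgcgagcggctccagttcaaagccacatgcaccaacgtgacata
Zic5: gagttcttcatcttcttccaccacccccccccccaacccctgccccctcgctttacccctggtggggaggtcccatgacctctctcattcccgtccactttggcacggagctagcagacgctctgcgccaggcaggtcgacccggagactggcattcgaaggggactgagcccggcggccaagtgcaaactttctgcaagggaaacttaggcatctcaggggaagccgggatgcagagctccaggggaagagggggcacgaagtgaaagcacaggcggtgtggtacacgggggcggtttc
The windows of Zic1 and Zic5 were rich in G and C (65.3% and 62.7%) and that of Zic4 was not (46%), beside a median of 52.7% over 32851 promoters. Of 6 motifs searched on both strands, only the E-box CACGTG was matched, at 1 place in the Zic1 window; it occurs in 7.15% of all promoters of this length. The letters CAGCAGG (ZIC, in 10.5% of promoters), GACCACCCA (GLI, 0.253%), TGACGTCA (cyclic AMP response element, 1.79%), TGAGTCA (AP-1, 5.2%) and GCGTGGGCG (EGR, 0.612%) had no match in the 3 windows. The motifs do not overlap one another in these windows, and a match is a run of letters, not a measured binding site.

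The Zic genes were expressed at low to moderate levels in this tissue. Over the 16 mice the mean level per kb of exon was 3.06 CPM for Zic1, 2.77 for Zic2, 0.474 for Zic5 and 0.404 for Zic4. Per length, Zic1 and Zic2 thus stood well above the other members. Raw counts per library ran from 281 to 1249 for Zic1, 188 to 432 for Zic2, 53 to 349 for Zic4 and 50 to 126 for Zic5, so that counting error alone gives a coefficient of variation of 2.83% to 5.97% for Zic1 and up to 14.1% for Zic5.

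Zic1, a midline and cerebellar patterning factor, had the largest within-group spread of the 4 genes on the log2 scale. It reached 21.04, 12.65, 9.96 and 15.98 CPM in the 4 home cage water mice and 21.7, 33.95, 14.8 and 20.2 CPM in the home cage caffeine mice. The learning water mice had 28.6, 13.6, 16.02 and 28.4 CPM, and the learning caffeine mice 7.49, 10.7, 12.2 and 11.6 CPM. The learning caffeine mice all lay below every learning water and every home cage caffeine mouse, while they overlapped with home cage water. The group means were 22.7 ± 8.09 CPM in home cage caffeine, 21.7 ± 7.97 in learning water, 14.9 ± 4.77 in home cage water and 10.5 ± 2.10 in learning caffeine (SD, n = 4 each). In that order, the first 2 groups overlapped with each other, and home cage water overlapped with both of them and with learning caffeine.

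Zic4, the divergent partner of Zic1, had lower counts but a similar order. Home cage water mice had 3.93, 3.54, 2.65 and 4.14 CPM and home cage caffeine mice 4.22, 6.76, 3.605 and 4.46 CPM. Learning water mice had 7.99, 4.38, 4.93 and 6.55 CPM and learning caffeine mice 1.41, 3.105, 2.79 and 2.32 CPM. Every learning water mouse was above every home cage water mouse, and every learning caffeine mouse was below every mouse of home cage caffeine and of learning water. The means were 5.96 ± 1.64 CPM in learning water, 4.76 ± 1.38 in home cage caffeine, 3.56 ± 0.657 in home cage water and 2.41 ± 0.737 in learning caffeine (SD, n = 4 each). The learning water and home cage caffeine mice overlapped, as did home cage caffeine with home cage water and home cage water with learning caffeine.

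Zic2 and Zic5, the pair on chromosome 14, had a narrower range between mice relative to their level. For Zic2, the values were 8.57, 7.36, 7.48 and 7.20 CPM in home cage water, 8, 12.75, 7.465 and 8.98 in home cage caffeine, 9.89, 6.54, 7.75 and 10.2 in learning water, and 5.01, 6.53, 7.58 and 6.47 in learning caffeine. For Zic5, they were 2.18, 1.94, 2.00 and 2.47 CPM in home cage water, 2.715, 3.79, 1.87 and 2.37 in home cage caffeine, 2.88, 1.71, 2.28 and 3.355 in learning water, and 1.33, 1.63, 1.83 and 2.70 in learning caffeine. Neighbouring groups overlapped for both genes. The order of the means was that of Zic1, from home cage caffeine (9.30 ± 2.39 CPM for Zic2 and 2.69 ± 0.813 for Zic5) to learning caffeine (6.40 ± 1.06 and 1.87 ± 0.589; SD, n = 4 each).

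**Figure D2:**
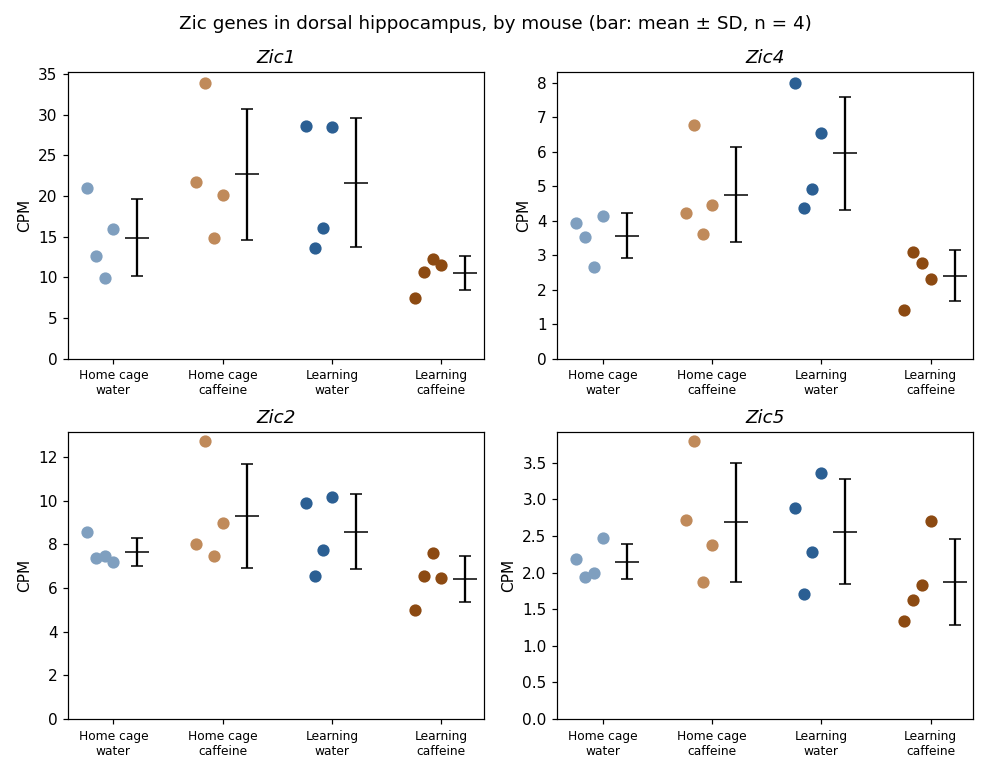
CPM of Zic1, Zic4, Zic2 and Zic5 in each mouse (points) of the 4 groups, with the group mean and SD (bars, n = 4) beside them, on linear axes from 0. Learning caffeine has the lowest mean in all 4 panels, and its 4 mice lie apart from learning water and home cage caffeine for Zic1 and Zic4 but not for Zic2 and Zic5.

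The same mice set the ends of the range for several members. The lowest level of each of the 4 genes was in learning caffeine mouse 22, and the highest was in home cage caffeine mouse 9 for Zic1, Zic2 and Zic5 and in learning water mouse 24 for Zic4. Mouse 9 has the fewest counts of all libraries, 23078094 of a range up to 49949281. From highest to lowest mouse, the ratio was 4.53 for Zic1, 5.66 for Zic4, 2.55 for Zic2 and 2.84 for Zic5. These ends lie beyond counting error, since Zic4 in learning caffeine mouse 22 (1.41 CPM) has a 95% Poisson interval of 1.06 to 1.85 CPM and in learning water mouse 24 (7.99 CPM) one of 7.17 to 8.87 CPM.

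Learning was first compared with the home cage in water-drinking mice, a comparison that did not choose the genes but shares its learning mice with one that did. None of the 4 members passed the threshold of an adjusted p of 0.1 in edgeR's quasi-likelihood test with Benjamini-Hochberg adjustment, against 0.97% of all tested genes in this comparison (0.639% higher and 0.331% lower). Zic4 came closest, with a mean 1.67 times that of home cage water, a log2 fold change of 0.74 (SE 0.24, 95% interval 0.24 to 1.24) and an adjusted p of 0.204 in edgeR. Its groups did not overlap, which held for 3.87% of all tested genes in the higher direction. The DESeq2 Wald test (log2 fold change 0.75, adjusted p = 0.0841) and edgeR on all genes with at least 1 count (0.75, adjusted p = 0.0846) placed Zic4 past the threshold. Over the 16 fits that leave out 1 mouse the edgeR value was lowest without learning water mouse 24 (0.57), the adjusted p ran from 0.128 to 0.376, and Zic4 was called in none. The values were 0.54 for Zic1 (SE 0.27, interval -0.03 to 1.12, adjusted p = 0.454 in edgeR), 0.17 for Zic2 (SE 0.17, -0.19 to 0.52, 0.723) and 0.24 for Zic5 (SE 0.24, -0.26 to 0.75, 0.718).

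Chronic caffeine was then compared with water in resting mice. This comparison did not choose the genes either, but its home cage caffeine mice are 1 arm of the comparison that did, which favours high values in them. No gene passed the threshold in edgeR (0% of 17830 genes, with 636 at an unadjusted p under 0.05 and 19 called by DESeq2). The 4 log2 fold changes were all above 0, at 0.60 for Zic1 (SE 0.28, 95% interval 0.02 to 1.18), 0.40 for Zic4 (SE 0.24, -0.11 to 0.91), 0.27 for Zic2 (SE 0.17, -0.08 to 0.63) and 0.30 for Zic5 (SE 0.24, -0.21 to 0.81), each with an adjusted p of 0.997 in edgeR. Caffeine mice were above water mice in 13 of 16 pairs for Zic1, 14 for Zic4, 13 for Zic2 and 11 for Zic5. These values were smaller without home cage caffeine mouse 9, at 0.35 for Zic1, 0.20 for Zic4, 0.10 for Zic2 and 0.11 for Zic5.

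Under caffeine, learning mice had lower levels than home cage mice. This is the comparison that chose the genes, and in it 942 genes (5.28%) passed the threshold, 3.16% in the higher direction and 379 (2.13%) in the lower. Zic1 fell by 1.09 on the log2 scale (SE 0.28) and Zic4 by 0.96 (SE 0.24), and the home cage mean was 2.16 times the learning mean for Zic1 and 1.98 times for Zic4. Zic2 had a log2 fold change of -0.52 (SE 0.17) and Zic5 of -0.51 (SE 0.24). Zic1 and Zic4, whose fall chose the genes, thus had larger decreases than Zic2 and Zic5. Learning mice were above home cage mice in 0 of 16 pairs for Zic1 and Zic4, in 1 for Zic2 and in 2 for Zic5, where 5.24% of all genes had groups without overlap in this direction.

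The size of this decrease depended on a few mice. Without home cage caffeine mouse 9, the log2 fold change of Zic1 was -0.84 and that of Zic4 -0.75. Without learning caffeine mouse 22, they were -0.95 and -0.76. Without learning caffeine mouse 40, Zic4 had -0.93 and Zic1 had -1.13. Over the 16 fits that leave out 1 mouse, Zic1 ran from -1.25 to -0.84 and Zic4 from -1.10 to -0.75. Because this comparison chose the genes, no call at the threshold is read from these fits.

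After training, caffeine mice were lower than water mice for all 4 members. The log2 fold changes were -1.30 for Zic4 (SE 0.24), -1.04 for Zic1 (SE 0.28), -0.45 for Zic5 (SE 0.24) and -0.42 for Zic2 (SE 0.17). Groups did not overlap for Zic1 and Zic4, as for 1.35% of all genes in this direction, while 1 of 16 pairs for Zic2 and 3 of 16 for Zic5 went the other way. No gene passed the threshold across the whole table in edgeR (0%, with 700 at an unadjusted p under 0.05), and DESeq2 called 6 genes. The difference between the learning responses, caffeine minus water, was -1.70 for Zic4 (SE 0.34), -1.64 for Zic1 (SE 0.39), -0.75 for Zic5 (SE 0.34) and -0.69 for Zic2 (SE 0.24). It combines the comparisons above and is likewise a description. Zic4 was 1 of 3 genes (0.0168%) without overlap in both learning comparisons that were higher under water and lower under caffeine, and 1 gene (0.00561%) showed the reverse. Because the fall under caffeine chose Zic4, nothing is read from this share. No gene passed the threshold for this difference in edgeR (0%, with 648 at an unadjusted p under 0.05), and DESeq2 called 6 genes.

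**Figure D3:**
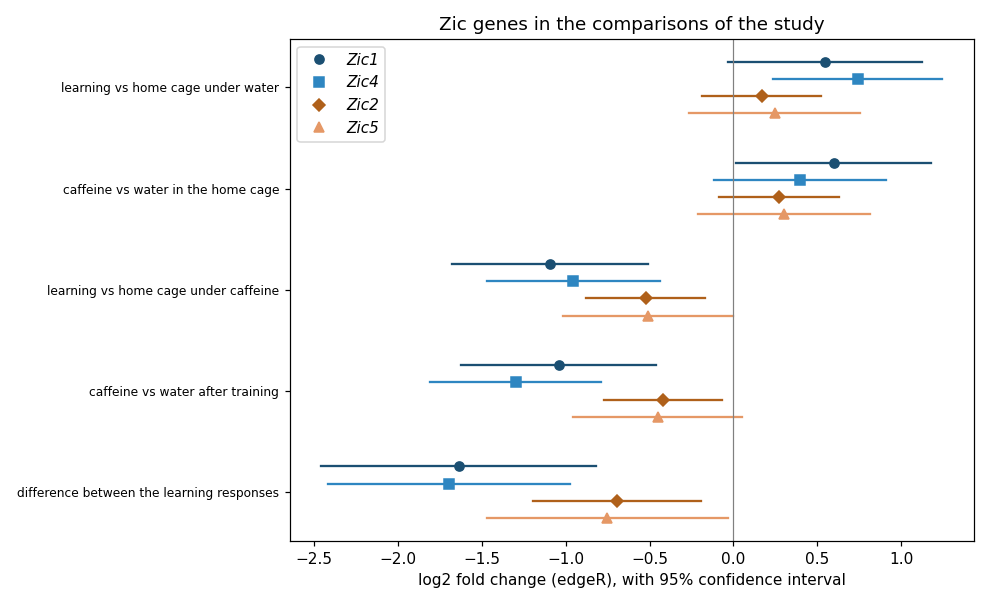
Log2 fold changes of the 4 Zic genes in edgeR (points) with 95% confidence intervals (lines) in each comparison, on a linear log2 axis. All points of the upper 2 comparisons, which share mice with those that chose the genes, lie above 0 (0.17 to 0.74), and all points of the lower 3, which are descriptions, lie below 0 (-0.42 to -1.70).

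The members moved together from mouse to mouse within groups. After each group's mean log2 CPM was subtracted, the deviations of Zic1 correlated over 16 libraries with those of Zic2 (Pearson r = 0.88, Spearman rho = 0.87), Zic4 (r = 0.87, rho = 0.86) and Zic5 (r = 0.81, rho = 0.81). Among the other pairs, r was 0.84 for Zic2 and Zic4, 0.77 for Zic2 and Zic5 and 0.68 for Zic4 and Zic5. Among 14603 genes whose log2 CPM averaged 0 or more, Zic2 and Zic4 ranked 1 and 2 in likeness to Zic1 and Zic5 ranked 12, although Zic2 and Zic5 lie on another chromosome. Only 14 of these genes (0.0959%) had an r above 0.8 with Zic1. These correlations share libraries, depth and dissection, and they describe these 16 mice.

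**Figure D4:**
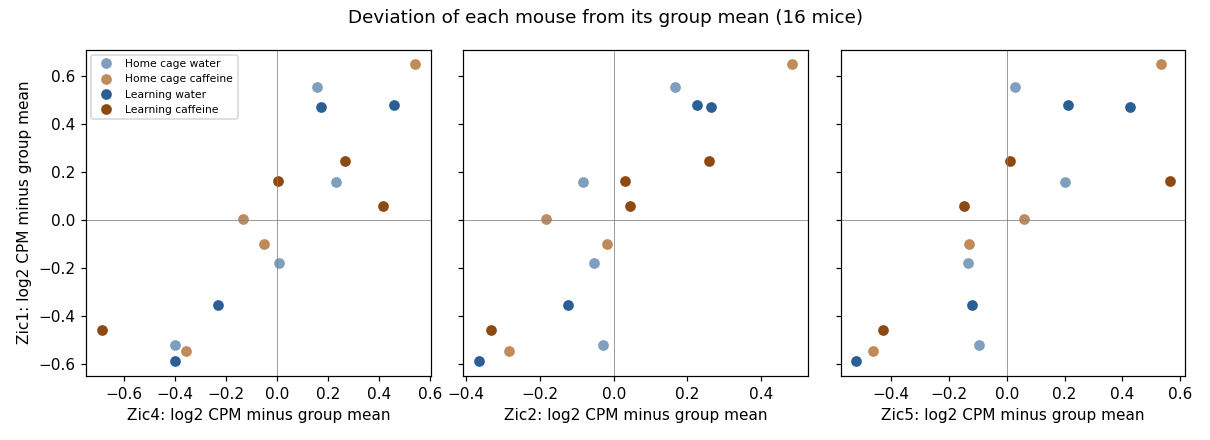
Deviation of each mouse from its group mean in log2 CPM, for Zic1 on the y axis against Zic4, Zic2 and Zic5 on the x axes (16 mice, colored by group). The points rise together in all 3 panels, with r of 0.87, 0.88 and 0.81.

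The ratio of the partners also stayed narrow beside the range of levels. Zic1 was a median 4.23 times Zic4 in CPM (3.11 to 5.35 over the 16 mice), and Zic2 a median 3.75 times Zic5 (2.39 to 4.15). The ratio of Zic1 to Zic2 averaged 1.64 ± 0.121 in learning caffeine, against 2.46 ± 0.447 in learning water, 2.40 ± 0.348 in home cage caffeine and 1.93 ± 0.504 in home cage water (SD, n = 4 each). It was at most 1.79 in the learning caffeine mice and at least 1.985 in every learning water and home cage caffeine mouse. Home cage water mice, at 1.33 to 2.45, overlapped with learning caffeine. Because the low Zic1 level of learning caffeine mice chose the genes, nothing is read from this separation.

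Variation among mice of 1 group was larger than for most genes. The within-group SD of log2 CPM was 0.46 for Zic1, 0.39 for Zic4, 0.37 for Zic5 and 0.26 for Zic2, beside a median of 0.12 over 13379 genes whose log2 CPM averaged 1 or more. It exceeded that of 98.9%, 97.9%, 97.2% and 91% of these genes in turn. The biological coefficient of variation in edgeR was 26.7% for Zic1, 22.7% for Zic4, 21.7% for Zic5 and 16.04% for Zic2, and the median of all tested genes was 9.62%. Since this variation falls with level, the edgeR trend at each gene's own level is the closer reference, at 9.82%, 14.9%, 17.2% and 12.3% in turn.

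Besides the members, the genes most like Zic1 within groups were Fank1 (r = 0.87), Col6a3 (r = 0.86), which encodes a collagen VI chain, and Klk6 (r = 0.85), a secreted serine protease. Those most like Zic4 were Ctxn3 (r = 0.87), Tmem86a (r = 0.84) and Thap4 (r = 0.83). Col6a3 followed the group pattern of Zic1, with mean levels of 8.15 CPM in home cage caffeine, 8.80 in learning water, 4.27 in home cage water and 3.855 in learning caffeine. It passed the threshold in learning against home cage under caffeine (log2 fold change -1.07, SE 0.31, adjusted p = 0.0768 in edgeR). Klk6 (-1.21, SE 0.43, adjusted p = 0.144 in edgeR) and Ctxn3 (-1.18, SE 0.51, 0.226) did not. Fank1 and Thap4 shared the mouse-to-mouse deviations but not the group pattern, with -0.09 (SE 0.13) and 0.02 (SE 0.07) in that comparison. Tmem86a fell under caffeine (-0.36, SE 0.10, adjusted p = 0.0631 in edgeR) and had a value of -0.33 (SE 0.10) under water.

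For Zic2 and Zic5 the most similar genes were picked after their values were seen. The top of the list for Zic2 was C130074G19Rik (r = 0.94), which also fell in learning against home cage under caffeine (-0.80, SE 0.16, adjusted p = 0.0163 in edgeR). For Zic5 it was Mki67 (r = 0.90), a marker of dividing cells, followed by Igfbpl1 (r = 0.86), known from newborn neurons. Mki67 had a log2 fold change of 0.02 (SE 0.24) in that comparison and Igfbpl1 of -0.99 (SE 0.37, adjusted p = 0.16 in edgeR).

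Among the relatives of the Zic genes, Gli1, Gli2 and Gli3 transduce hedgehog signals and Glis1, Glis2 and Glis3 are more distant kin. None of these 6 genes was called in any comparison.

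Of 13 hedgehog pathway genes, from the ligand Shh and the receptor Ptch1 to the transducer Smo and the inhibitors Sufu and Hhip, 11 were tested. Gas1, a membrane co-receptor for hedgehog ligands, fell in learning against home cage under caffeine (log2 fold change -0.50, SE 0.13, adjusted p = 0.0444 in edgeR). Of all tested genes, 2.13% were called lower there. No other member was called there, and none was called in the other comparisons. The median of the 11 genes was 0.04 in that comparison. Of 5 genes reported as Zic targets, Ephb1, Apoe and Drd1 passed the count filter and none of the 3 was called in any comparison. Over all tested genes, 5.28% were called in learning against home cage under caffeine, 0.97% under water and 0% in the others. All 3 targets were below 0 in learning against home cage under caffeine (median -0.25) and in caffeine against water after training (median -0.04). Under water 2 were below 0. Drd1 had -0.57 (SE 0.195) under caffeine and -0.35 (SE 0.20) under water. Ephb1, the guidance receptor that Zic2 controls in retinal axons, had values of -0.25 (SE 0.13) in learning against home cage under caffeine and 0.18 (SE 0.13) under water.

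Genes beside the Zic loci could be compared with the members only on chromosome 14. On chromosome 14, Clybl, Pcca and 2610035F20Rik, which is transcribed between Zic5 and Zic2, were tested within 150 kb of the pair. They had log2 fold changes of 0.09 (SE 0.08), -0.05 (SE 0.06) and -0.15 (SE 0.37) in learning against home cage under caffeine, and none was called in any comparison. With 3 to 22 counts in a library, 2610035F20Rik is too imprecise to be set apart from Zic2 and Zic5. On chromosome 9 no other gene within 150 kb passed the count filter, and none reached more than 7 counts in a library. Neighbours of Zic1 and Zic4 were therefore not tested.

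Because Zic genes are known from tissue next to the dorsal hippocampus, marker lists of neighbouring tissue and of other cell types were read in the same libraries. No marker of any list was at 0 in every library. Of all tested genes, 52.9% had a log2 fold change below 0 in learning against home cage under caffeine. This share was 51.5% under water and 51.9% in caffeine against water after training. Beside the lower Zic levels of learning caffeine mice, the 6 ependymal markers (cells that line the ventricle, led by Foxj1, Rarres2 and Ccdc153) were all below 0 in learning against home cage under caffeine, with a median log2 fold change of -0.71, although none was called. All 6 were also below 0 in caffeine against water after training, with a median of -0.49 and none called. Their summed level was 30.6 to 45.2 CPM in home cage water, 33.15 to 57.6 in home cage caffeine, 16.9 to 66.6 in learning water and 23.1 to 41.7 in learning caffeine. In learning caffeine mouse 22, which had the least of every Zic gene, the ependymal sum was the highest of its group (41.7 CPM). Over all mice it was highest in learning water mouse 24 (66.6 CPM), which had the most Zic4. Next came home cage caffeine mouse 9 (57.6 CPM), which had the most Zic1, Zic2 and Zic5. Within groups the ependymal sum had r of 0.23 to 0.38 with the 4 members (n = 16). Without the 2 mice farthest from the median, r was -0.01 to 0.16. With CPM in place of log2 CPM, r was 0.38 to 0.64. Its part in the result was not tested.

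Choroid plexus markers, led by Ttr, Kl and Clic6, differed most between home cage water and the other groups. Their sum was 315.4 to 2400.0 CPM in home cage water and 200.1 to 518.4 in home cage caffeine, 170.5 to 448.6 in learning water and 121.6 to 211.6 in learning caffeine. In learning against home cage under water, 5 of 12 fell (Folr1, Kcne2, Ttr, Slc4a5 and Kcnj13), beside 0.331% of all tested genes called lower. All 12 were below 0, where the 4 Zic values lay above 0. In learning against home cage under caffeine 11 of 12 were below 0, with none called and a median of -0.61. In caffeine against water after training all 12 were below 0, as were the 4 Zic values, with none called and a median of -0.77. Within groups the choroid plexus sum had r of 0.21 to 0.34 with the 4 members, and from 0.42 to 0.68 without the 2 mice farthest from the median, and its part in the Zic levels was not tested.

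The sum of the thalamic list (led by Prkcd, Rora and Plekhg1) had a narrow range, from 137.6 CPM in learning caffeine to 171.1 in home cage caffeine. The group ranges were 146.5 to 165.7 CPM in home cage water, 140.3 to 171.1 in home cage caffeine, 142.3 to 161.5 in learning water and 137.6 to 150.4 in learning caffeine. Under caffeine, Plekhg1 (-0.36, SE 0.11, adjusted p = 0.0836 in edgeR) and Synpo2 (-0.34, SE 0.10, 0.0798) fell and Rgs16 (0.40, SE 0.12, 0.0954) rose among 11 tested. Of all tested genes, 5.28% were called in learning against home cage under caffeine. Some single thalamic markers varied more between mice than the sum, with Slc17a6 at 7.096 to 27.99 CPM and Prkcd at 27.73 to 59.54. Others, such as Ramp3 (3.548 to 5.162 CPM), varied less than these. The narrow sum therefore does not show that each marker was steady. The thalamic sum had r = 0.50 with Zic1, 0.57 with Zic5, 0.26 with Zic2 and 0.25 with Zic4 within groups, and 0.30, 0.37, -0.03 and 0.08 in turn without the 2 mice farthest from the median. Meningeal markers (14, led by Igf2, Dcn and Slc6a13) had sums of 104.4 to 200.1 CPM in home cage water, 81.3 to 175.7 in home cage caffeine, 87.1 to 133.0 in learning water and 82.1 to 166.3 in learning caffeine. None was called. In learning against home cage under caffeine 13 of the 14 were below 0 (median -0.22), and 3 were in caffeine against water after training (median 0.14). Within groups the meningeal sum had r of 0.50 with Zic4 and 0.13 to 0.39 with the other members. The part of either list was not tested.

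Markers of the septal and basal forebrain cholinergic neurons were close to absent, with a sum of 0.6 to 1.5 CPM over 6 genes and only Slc5a7 past the count filter. Cerebellar markers (led by Cbln1, Cdh15 and En2), checked because Zic1 and Zic4 are abundant in granule cells, summed to 5.9 to 9.1 CPM. None of 5 tested was called, beside 5.28% of all tested genes in learning against home cage under caffeine, 0.97% under water and 0% otherwise. In learning against home cage, 3 were below 0 under caffeine (median -0.36) and 2 under water (median 0.10). In caffeine against water, 5 were below 0 after training (median -0.16) and 1 in the home cage (median 0.24). Striatal markers (led by Pde10a, Ppp1r1b and Rgs9) ranged from 156.1 to 198.2 CPM and medial habenula markers (led by Nwd2, Lrrc55 and Tac2) from 49.8 to 71.3 CPM. From these lists Ppp1r1b (log2 fold change -0.36, SE 0.09) and Pou4f1 (-2.45, SE 0.61) fell in learning against home cage under water, each with an adjusted p of 0.0948 in edgeR. Of all tested genes, 0.331% were called lower there. In that comparison 6 of the 7 habenula markers tested were below 0, with a median of -0.78, although Nwd2, which makes up most of the sum, was not. Of the 8 striatal markers, 6 were below 0 there (median -0.22). Under caffeine 7 were below 0 in learning against home cage (median -0.33), and 4 were in caffeine against water after training. No marker of neocortex (8 tested, led by Lamp5, Tshz2 and Fezf2), mural cells (12, led by Rgs5, Vtn and Pdgfrb) or Cajal-Retzius cells (7, led by Reln, Ndnf and Cacna2d2) was called in any comparison, beside the shares above. In learning against home cage under caffeine, 6 neocortex, 9 mural and 5 Cajal-Retzius markers were below 0 (medians -0.13, -0.17 and -0.15). In caffeine against water after training, 3, 1 and 6 were in turn (medians 0.02, 0.17 and -0.13).

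A list of 10 genes of neuroblasts from the wall of the lateral ventricle, led by Dcx, Dlx1 and Sox4, was added after Igfbpl1 had been seen beside Zic5. Dcx marks newborn neurons of the dentate gyrus as well, and Dlx1 is also found in interneurons. The sum ranged from 84.9 to 94.2 CPM in home cage water, 86.8 to 103.5 in home cage caffeine, 93.05 to 99.3 in learning water and 72.4 to 97.45 in learning caffeine. Its lowest mouse was learning caffeine 22 and its highest home cage caffeine 9, which were also the ends of the range for Zic1, Zic2 and Zic5. Within groups r was 0.64 with Zic1, 0.70 with Zic2, 0.58 with Zic4 and 0.78 with Zic5 (n = 16), and 0.49 to 0.78 without the 2 mice farthest from the median. None of the 10 genes was called in any comparison. The share called over all tested genes was 5.28% in learning against home cage under caffeine, 0.97% under water and 0% in the others. In learning against home cage under caffeine 8 were below 0, with a median log2 fold change of -0.13. After training, 8 were below 0 in caffeine against water (median -0.15). In learning against home cage under water 3 were below 0 (median 0.14), and 1 was in caffeine against water in the home cage (median 0.10). The part of this list in the Zic levels was not tested.

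**Figure D5:**
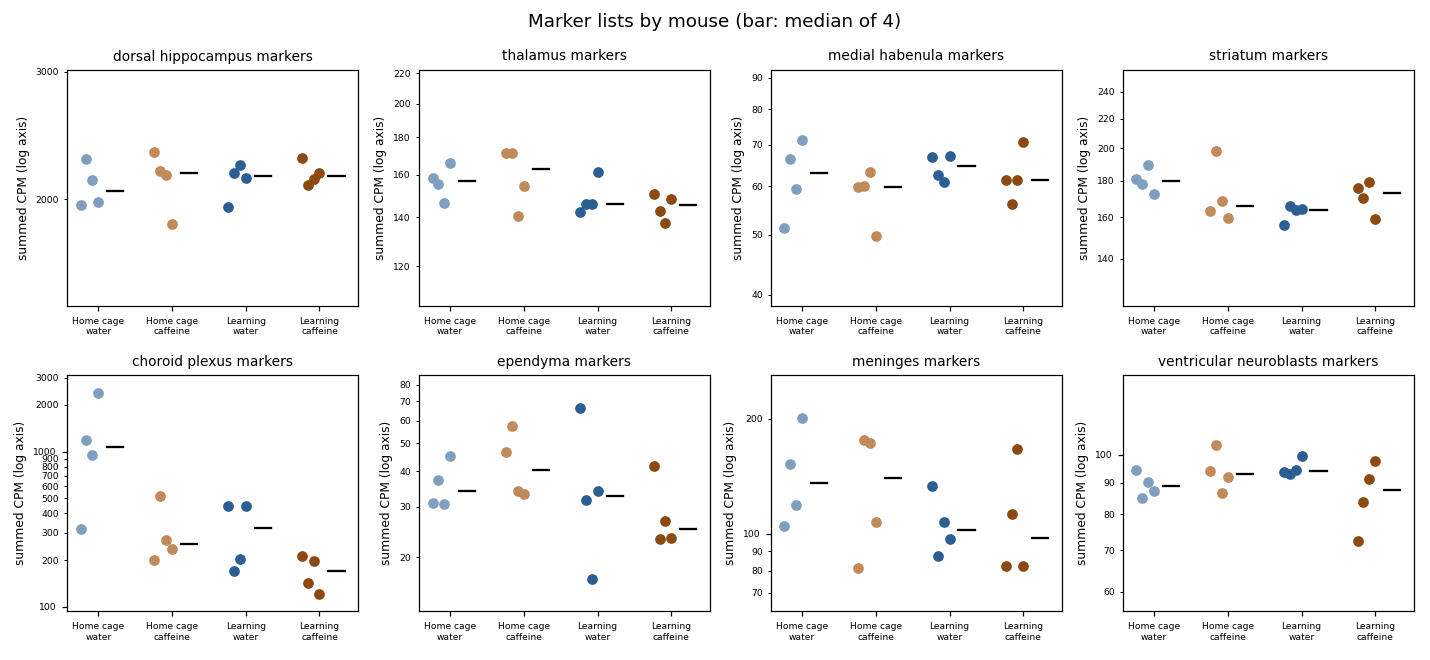
Summed CPM (log axis) of 8 marker lists in each mouse (points), with the group median (bar, n = 4), for dorsal hippocampus, thalamus, medial habenula, striatum, choroid plexus, ependyma, meninges and ventricular neuroblasts. Choroid plexus markers span the widest range (121.6 to 2400.0 CPM) and are highest in home cage water, whereas dorsal hippocampus markers stay between 1849 and 2323 CPM in all 16 mice.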

How the data were processed

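RNA-Seq libraries of polyadenylated RNA from the dorsal hippocampus of 16 mice (4 groups of 4) were analyzed from the raw read counts per Ensembl gene that the authors deposited. Per the study's methods, the authors made stranded libraries, sequenced single-end reads of 50 bases, aligned them to mm10 with STAR and Bowtie 2, and counted uniquely aligned reads with HTSeq-count (version 0.6.1p1) in union mode on Ensembl release 90; the submitters' notes also name bcl2fastq 2.17.1.14. Whether the counting used the strand is not given in the sources used here. The counts carry no normalization and no molecular identifiers, so that Poisson intervals cover counting error only. Library totals ran from 23078094 to 49949281 counts (median 36437284.5), and the standard error of a log2 fold change had a median of 0.10 over all tested genes.

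From these counts, edgeR 4.0.16 in R 4.3.3 was run with TMM normalization, filterByExpr (17830 of 35328 genes), and 1 model with a mean for each of the 4 groups; quasi-likelihood p-values were adjusted by Benjamini-Hochberg over all tested genes. Genes were called at an adjusted p under 0.1, the threshold of the study. CPM was computed with TMM-scaled library totals, and correlations use log2 CPM with a prior count of 2. Symbols and positions are from GENCODE M21 (35247 genes matched). Replicates are separate mice, and within each group the libraries differed by more than sampling noise (chi-square divided by its degrees of freedom was 5.26 to 30.4 in 24 pairs). The fit was tested on simulated data with 200 changed genes. Alternatives were DESeq2 1.42.0 (Wald test, or its size factors in edgeR), other count filters, a robust fit, only the groups compared, an adjusted p under 0.05, r of CPM, and each library left out. The members, the gene and marker lists and the comparisons described without a test were chosen with earlier results of these data known. Named genes were the members, genes that overlap them, the 5 most like Zic1 and Zic4, called genes of the pathway lists and the 3 highest genes of each marker list; other named genes, such as called markers, were chosen after their values were seen. A few genes covered by this rule or by the lists are not reported here.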

Additional observations from a re-analysis of the deposited data

Results flagged for a closer look

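The measured learning values of Zic4 lay in opposite directions in the 2 drinking groups. The rise under water did not pass the threshold in the main edgeR fit (adjusted p = 0.204) or in any of the 16 fits that leave out 1 mouse. It passed in 2 of 8 alternative settings, with an adjusted p of 0.0841 in the DESeq2 Wald test. The learning water mice are also 1 arm of a comparison that chose the genes. Every learning water mouse was above every home cage water mouse, and every learning caffeine mouse was below every home cage caffeine mouse, which gives a difference between the log2 fold changes, caffeine minus water, of -1.70. This difference is given as a description and no test of it is used, because its caffeine part chose the gene. Of the 17830 genes tested, 3 (0.0168%) showed this pattern of higher under water and lower under caffeine without overlap, Zic4 and Grb14 among them, and 1 (0.00561%), Gm23600, showed the reverse; the genes other than Zic4 were named after their values were seen. Nothing is read from this share for Zic4, whose fall under caffeine was the reason for its choice. None of the 16 sets of 4 mice (4 members in 4 groups) had a mouse that stood apart from the other 3 by Dixon's criterion.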

How the results depend on the processing

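No paired analysis was possible because the mouse numbers of the labels are unique to each animal and the groups share none. Of 144 values of the 4 members under another tool, filter, normalization or threshold, or without learning water mouse 24 and learning caffeine mouse 22 (a setting chosen after seeing the data), 142 kept their direction and side of the threshold where they had a test. The others were Zic4 in learning against home cage under water, which passed with DESeq2 (0.75) and with genes of at least 1 count (0.75), where the adjusted p ran from 0.0841 to 0.28 over the alternatives; the cause was not tested. None of 464 member values under these settings or with 1 mouse left out changed sign.

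Counts of called genes moved more. In learning against home cage under water, 173 became 427 with DESeq2, 290 with genes of at least 1 count, 85 with only the groups compared, 70 at an adjusted p under 0.05, and 37 to 312 when 1 mouse was left out. Under caffeine, 942 became 1561 with DESeq2, 617 with only the groups compared, 449 at an adjusted p under 0.05, and 382 to 1231 when 1 mouse was left out. For caffeine against water in the home cage, 0 became 19 with DESeq2, 34 with at least 1 count, 1 with the robust fit, and 0 to 33 when 1 mouse was left out. After training, 0 became 6 with DESeq2, 8 with at least 1 count, and 0 to 1 when 1 mouse was left out. For the difference between the learning responses, 0 became 6 with DESeq2, 9 with at least 1 count, and 0 to 1 when 1 mouse was left out. With CPM in place of log2 CPM, 61 of 64 correlations between a member and a list moved by less than 1 standard error of a correlation over 16 libraries (Fisher's z scale), and those of Zic4 with the cholinergic (0.34), ependymal (0.64) and cerebellar (0.55) lists moved by more. Zic4 and Zic5 rest on as few as 53 and 50 counts in a library, which limits the precision of their levels.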
